A study of Mus musculus with 2 samples.

Results

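Other leukocytes of the mouse molar germ were taken here as the white blood cells left after macrophages, neutrophils and osteoclast-like cells had been set aside, and they numbered 262 of 28918 barcodes. A barcode entered with at least 500 genes, at most 20% mitochondrial unique molecular identifiers (UMIs, each standing for 1 captured transcript) and at least 3 UMIs of Ptprc, Laptm5 and Coro1a together. Barcodes were left out at 20 or more UMIs per 10000 of C1qa, C1qb and C1qc, at 40 or more of S100a8 and S100a9, at 40 or more of Acp5, Ctsk, Mmp9 and Atp6v0d2, or above 100 of Col1a1, Col1a2 and Col3a1. The members were thus chosen by the measured counts of these genes, whose levels are a description only.

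The cells came from first molar germs of the lower jaw of newborn C57black/B6 mice. The control library carried the floxed receptor gene alone (Edarfl/fl), and the deletion library carried the same floxed gene with a Cre recombinase under the keratin 14 promoter (K14cre;Edarfl/fl), which is active in epithelium. Each group was 1 BD Rhapsody library, so no difference between them has a replicate check and no p-value is given. The number of animals behind each library was not stated. Intervals are 95% and cover counting error only.

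Leukocytes of a tissue include cells that settle before birth and cells that arrive from blood. Mast cells and basophils both store histamine and both make carboxypeptidase A3, but they carry different serine proteases. B cell precursors use a surrogate light chain until their own light chain gene is rearranged, and class II molecules display peptides to T cells. Ccr2 is the chemokine receptor by which inflammatory monocytes leave the marrow.

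The control library held 119 of these cells among 13431 barcodes, a share of 0.886% (exact binomial interval 0.735 to 1.06). The deletion library held 143 among 15487, a share of 0.923% (0.779 to 1.09). The intervals overlap. The gate on Ptprc, Laptm5 and Coro1a alone passed 838 and 846 barcodes, of which 538 and 484 were C1q-high, 139 and 127 S100-high, 58 and 95 high in osteoclast genes and 32 and 23 collagen-high, with overlaps between these sets. Just inside the leukocyte limit, at 3 UMIs, lay 14 control and 14 deletion cells, and just outside it, at 2 UMIs, lay 18 and 27. Between 10 and 20 C1q UMIs per 10000 lay 6 and 15 members, and between 20 and 30, outside the limit, lay 19 and 17 barcodes.

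Median depth was 4052 UMIs per control member and 3044 per deletion member, as against 4468 and 3351 over all barcodes used. A doublet caller marked 3 and 5 members, and 4 barcodes occurred in both libraries. Edar had 0 UMIs in the members of both libraries. In epithelial barcodes Edar stood at 34.5 CPM (UMIs of the gene scaled to equal library totals; Poisson interval 30.8 to 38.4) of control and 18.9 CPM (15.5 to 22.8) of deletion origin, and reads outside the deleted part could still be counted. Cells with Xist and no Y-linked UMI numbered 17 control and 51 deletion members, and cells with Y-linked UMIs and no Xist 50 and 37, so both libraries held cells of both sexes in different proportions.

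Each member was placed in the first of 7 classes whose gate it met. The Cpa3 class (at least 3 UMIs and 10 per 10000) held 6 control and 8 deletion cells. The Cd79a class (at least 2 UMIs) held 10 and 11, the Cd3e class (at least 1 UMI) 1 and 2, and the Mpo class (at least 2 UMIs and 10 per 10000) 3 and 0. The Cd74 class (at least 3 UMIs and 20 per 10000) held 2 and 13, the Ccr2 class (at least 1 UMI) 41 and 47, and the remainder 56 and 62. The classes are ranges along a count: 15 control and 18 deletion cells of the Ccr2 class rested on 1 Ccr2 UMI, and 1 cell of the Cpa3 class in each library had 3 to 5 Cpa3 UMIs.

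**Figure D1:**
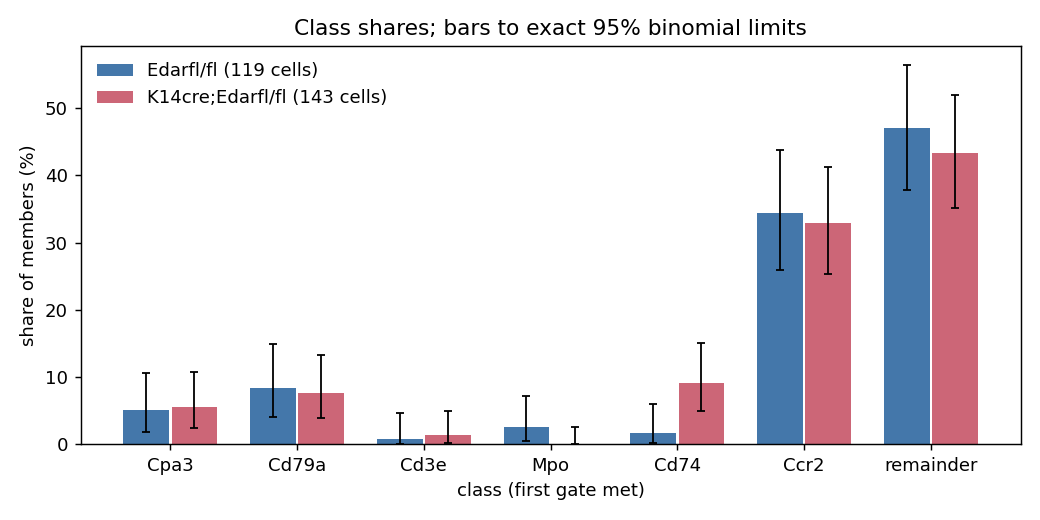
Share of members in each class (vertical axis, %) in the control library (blue, 119 cells) and the deletion library (red, 143 cells), with exact 95% binomial limits as bars. The Cd74 class stood at 1.68% and 9.09% with limits that overlap narrowly, and the limits of each other class overlap as well.

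In endothelial barcodes, which should lack these genes, Cpa3 had a UMI in 0 of 1092 control cells (3 counts would be 0.275%, and the exact upper limit is 0.337%) and 1 of 894 deletion cells, at median depths of 3226.5 and 3183.5 UMIs. Cd79a had a UMI in 4 (0.366%) and 6 (0.671%) of them and Cd74 in 1 and 0. All of these endothelial barcodes had 0 UMIs of Ptprc, Laptm5 and Coro1a, so their counts may understate free RNA of leukocytes. Among the members, 6.72% and 6.29% of cells had a Cpa3 UMI, 8.40% and 9.09% a Cd79a UMI and 14.3% and 18.2% a Cd74 UMI.

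The Cpa3 class held mast-like and basophil-like cells. Cma1 (mast cell chymase), Tpsb2 (a tryptase), Mcpt4 (a further chymase) and Il1rl1 (the interleukin 33 receptor) led its genes over the other members, beside Cpa3 itself. Cma1 lies on chromosome 14 at 55941451 to 55944675 and Mcpt4 at 56059629 to 56062313, both on the minus strand of mm10. The last 400 bases of their transcripts were 74.7% identical over the aligned positions, so exchange of reads between these relatives is uncertain and was not tested. Windows around the gene starts of these and Cpa3, 250 bases before to 50 after, are shown because Cpa3 was found in both kinds of cell while Cma1 and Mcpt4 were not always found together (RefSeq, GRCm38.p6, minus strand; chr3:20242132-20242431, chr14:55944626-55944925 and chr14:56062261-56062560; capitals mark a GATA motif).
Cpa3: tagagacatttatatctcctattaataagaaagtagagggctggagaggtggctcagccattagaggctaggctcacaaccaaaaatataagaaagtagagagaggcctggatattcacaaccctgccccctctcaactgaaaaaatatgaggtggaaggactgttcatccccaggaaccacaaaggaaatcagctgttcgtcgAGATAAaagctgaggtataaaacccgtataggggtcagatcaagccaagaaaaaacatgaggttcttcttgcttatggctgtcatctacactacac
Cma1: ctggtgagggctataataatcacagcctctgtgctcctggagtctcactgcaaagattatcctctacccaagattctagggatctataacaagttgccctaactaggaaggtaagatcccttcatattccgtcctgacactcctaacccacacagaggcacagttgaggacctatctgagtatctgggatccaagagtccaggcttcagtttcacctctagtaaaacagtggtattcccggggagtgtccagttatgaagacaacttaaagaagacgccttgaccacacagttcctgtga
Mcpt4: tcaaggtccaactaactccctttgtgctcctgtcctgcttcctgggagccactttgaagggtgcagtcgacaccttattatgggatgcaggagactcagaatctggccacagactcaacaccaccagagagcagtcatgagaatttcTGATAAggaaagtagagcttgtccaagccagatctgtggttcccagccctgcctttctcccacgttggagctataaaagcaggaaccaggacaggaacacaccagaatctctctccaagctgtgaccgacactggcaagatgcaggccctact
In all, 4 motifs were searched on both strands. TGATAA, found in 9.05% of 32851 such windows, was present at Mcpt4 and at 1 of the windows of Il1rl1, and absent from those of Cpa3, Cma1, Hdc and Kit. AGATAA, found in 11.2%, was present at Cpa3 and Il1rl1 and absent from Cma1, Mcpt4, Hdc and Kit. The EBF motif CCCNNGGG with a T before and an A after it, in 0.904% of windows, was absent from those of Cd79a, Vpreb1, Vpreb3, Igll1 and Pax5. CCCNNGGG alone, tried after that search found none, was in 13.7% of windows and in Igll1 alone of those genes. These matches describe letters in the windows and nothing about binding.

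Cma1 marked 4 of the 6 control cells and 5 of the 8 deletion cells of the Cpa3 class. Its UMIs in the control cells were 188, 171, 22 and 65, and in the deletion cells 20, 29, 61, 82 and 33. Kit, the stem cell factor receptor, had UMIs in each of these 9 cells and in none of the other 5. In the summed Cma1-bearing cells Kit stood at 1737 CPM (1235 to 2375) for control and 1738 CPM (1258 to 2342) for deletion.

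Mcpt4 differed within the Cma1-bearing cells. The control cells had 164, 68, 35 and 63 Mcpt4 UMIs, and the deletion cells had 0, 1, 0, 83 and 0. All 4 control cells lay above 10 UMIs and 1 of the 5 deletion cells did. Summed over these cells, Mcpt4 was 14700 CPM (13157 to 16375) for control and 3396 CPM (2709 to 4204) for deletion, of whose 84 UMIs 83 lay in that 1 cell. Splitting the class by Cma1 was chosen after the values were seen.

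Tpsb2 UMIs in the Cma1-bearing cells were 104, 189, 18 and 94 (control) and 21, 44, 6, 62 and 0 (deletion). Their sums were 18041 CPM (16326 to 19886) and 5377 CPM (4502 to 6372), although the cells overlap in count. Hdc, which makes histamine, was 14255 and 8935 CPM and was present in each of the 14 cells of the class. Mrgprb1, a receptor gene of mast cells, had 10, 10, 9 and 9 UMIs in the control Cma1-bearing cells and 5, 11, 0, 10 and 0 in the deletion ones.

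**Figure D2:**
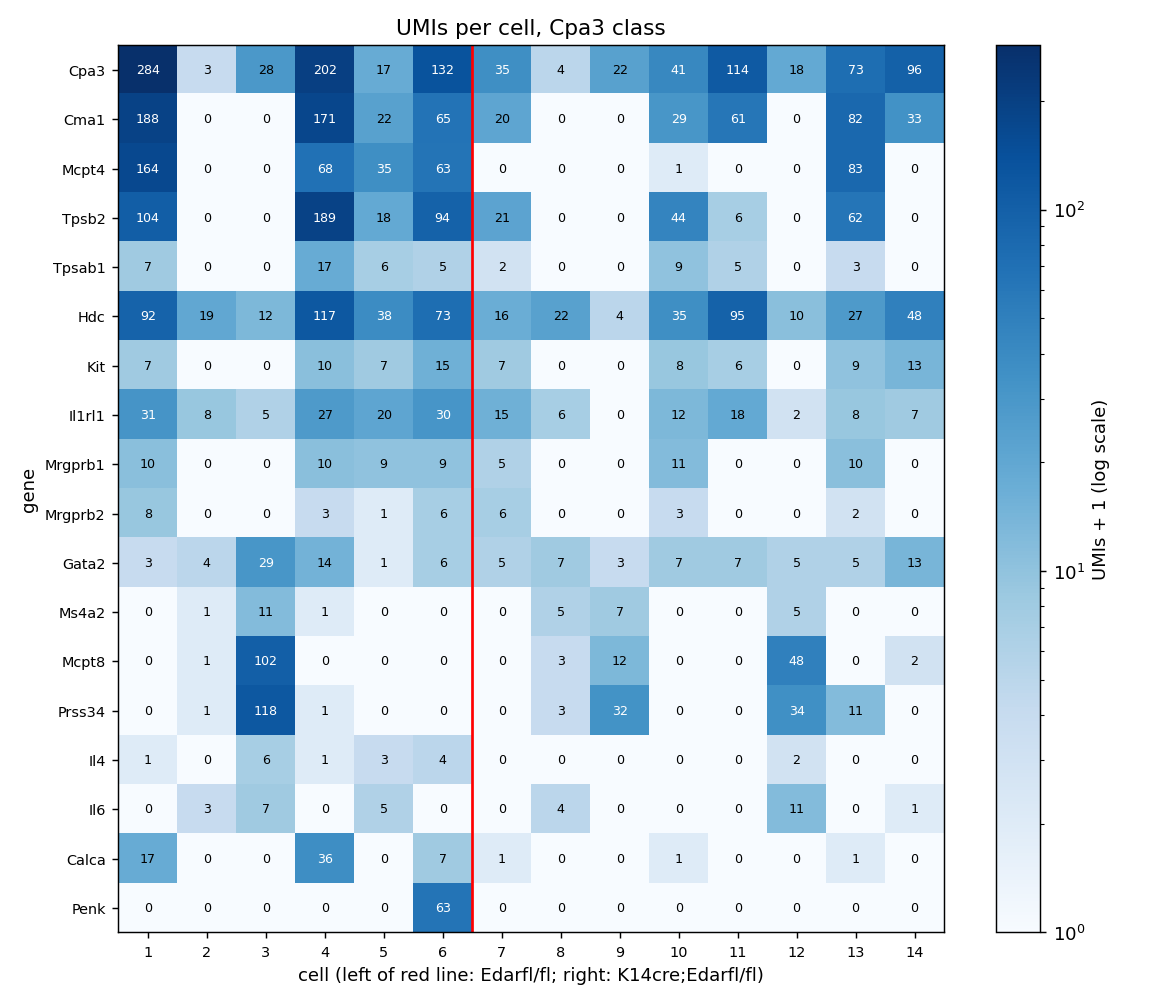
UMIs of 18 genes (rows) in each of the 14 cells of the Cpa3 class (columns, control left of the red line), coloured on a log scale. Mcpt4 fills the 4 control cells with Cma1, from 35 to 164 UMIs, and is high in 1 deletion cell, at 83.

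The other 5 cells carried Mcpt8, the basophil protease, with Prss34, a second basophil protease, and no Cma1 or Kit. Mcpt8 had 1 and 102 UMIs in the 2 control cells and 3, 12 and 48 in the 3 deletion cells. Prss34 had 1 and 118, and 3, 32 and 34. Among Cma1-bearing cells, 1 deletion cell held 11 Prss34 UMIs, another held 2 Mcpt8 UMIs and 1 control cell held 1 Prss34 UMI. Ms4a2, the beta chain of the IgE receptor, had 1 and 11, and 5, 7 and 5. Il6 was present in both control cells, with 3 and 7 UMIs, and in 2 deletion cells, with 4 and 11. Il13, Mcpt1 and Mcpt2 had 0 UMIs in every cell of the class.

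Differences between libraries were named by a rule of size: at least 50 CPM in 1 library, at least 2-fold on CPM plus 5, and a counting interval of the ratio that excludes 1. In the Cpa3 class 98 genes were higher in the deletion library (2.0% of 4901 tested) and 112 were lower (2.29%). Of the mast protease and granule list, 0 of 9 measured genes lay above 0 and 3 passed the rule as lower, with a median log2 ratio (deletion over control) of -0.87, beside 0.03 over all genes. Those 3 were Mcpt4 (log2 ratio -1.94), Tpsb2 (-1.57) and Ctsg (-1.69), a granule protease with 30 and 9 UMIs. Without the gene's UMIs in its highest cell, and with the class totals kept, none of the 3 passed as lower. Mcpt4 then stood at -0.95, Tpsb2 at -0.67 and Ctsg, with 1 and 9 UMIs, at 3.0, on the other side of 0. The cell's other UMIs stayed in the total, so the control level is understated. Removal of the whole cell was not tested. Il4 had 15 UMIs in 5 control cells and 2 UMIs in 1 deletion cell. Penk, an opioid peptide precursor, had 63 UMIs in 1 control cell and 0 elsewhere in the class. Of the called genes, 14 higher and 31 lower ones took over 50% of their UMIs from 1 cell. Epithelial genes summed to 663 CPM (control) and 118 CPM (deletion) within the class, and their part in these values was not tested.

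The Cd79a class was B-cell-like, led by Cd79a, Vpreb1, Igll1, Vpreb3, Igkc and Ighm. Vpreb1 and Igll1 encode the surrogate light chain and Igkc the kappa light chain. Vpreb1 overlaps Top3b on the other strand over 108 bases, and it had a UMI in 6 endothelial cells of each library. Dntt, which adds bases at immunoglobulin joints, had 0 UMIs in all 21 cells.

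Vpreb1 or Igll1 was present in 6 of 10 control cells (interval 26.2 to 87.8%) and 10 of 11 deletion cells (90.9%, 58.7 to 99.8). The 4 control cells without either carried Igkc (7, 22, 11 and 9 UMIs), Ms4a1, the surface antigen CD20 (1, 5, 8 and 1), and Cd74 (6, 10, 3 and 5). The 1 deletion cell without either had 7 Igkc UMIs and 0 of Ms4a1 and Cd74. Cd74 was thus present in 4 control cells and 0 deletion cells of the class, and Ms4a1 in 5 and 0. This depends on the Cd79a gate. Outside the class, 2 deletion cells held Cd74 (4 and 3 UMIs) with Ighm (7 and 10), and their Cd79a UMIs, 0 and 1, missed the gate. In the remainder, at least 3 UMIs of Ighm, Cd79b, Ebf1 and Vpreb3 marked 5 control and 3 deletion cells. With 10 and 11 cells the exact limits overlap: 12.2 to 73.8% for Cd74 among control cells and 0 to 28.5% among deletion cells.

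Rag1, part of the enzyme that cuts the receptor genes, was present in 5 control and 8 deletion cells. Top2a, which untangles DNA in dividing cells, was present in 0 of 10 control cells (up to 30.8%) and 6 of 11 deletion cells (54.5%, 23.4 to 83.3). Its UMIs in those 6 cells were 6, 7, 10, 4, 6 and 1. Top2a or Mki67, a proliferation marker, was present in 1 control and 6 deletion cells. Among the 6 control and 10 deletion cells with Vpreb1 or Igll1, the counts were 1 and 5. Median depth in the class was 2208.5 UMIs per control cell and 3468 per deletion cell. After each cell was thinned to 1000 UMIs, 3 of 10 control and 9 of 11 deletion cells had at least 2 UMIs of the 20 cell cycle genes, the same counts as without thinning.

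**Figure D3:**
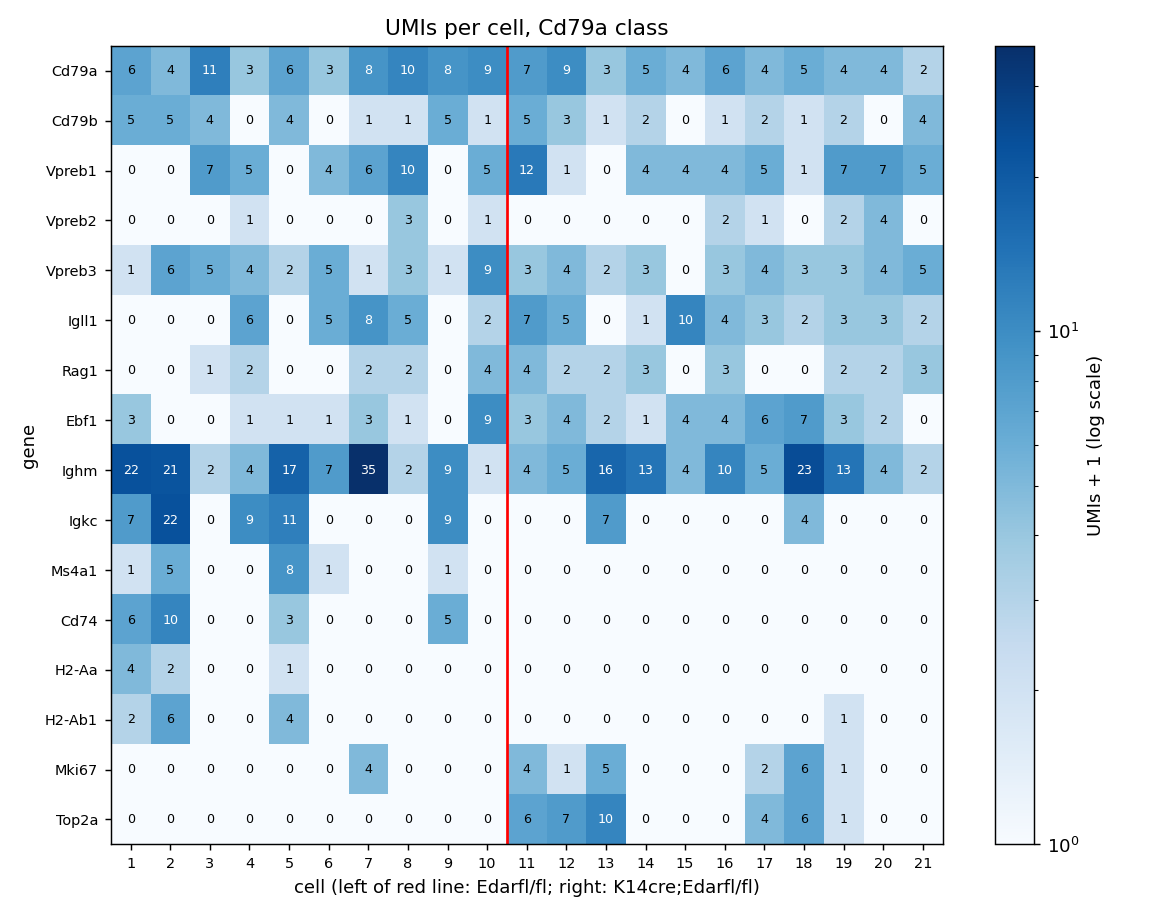
UMIs of 16 genes (rows) in the 21 cells of the Cd79a class (columns, control left of the red line), coloured on a log scale. Cd74 and Ms4a1 lie in control cells, and Top2a lies in 6 deletion cells.

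The 3 cells of the Cd3e class were T-cell-like. Cd163l1, a scavenger receptor known from gamma delta T cells, had 10 UMIs in the control cell and 4 in each deletion cell. Trbc1, a beta chain constant gene, had 13 UMIs in the control cell and 0 and 2 in the deletion cells, and Trbc2, the other, had 4, and 3 and 1. Trdc, the delta chain constant gene, had 2 UMIs in the control cell and 0 and 3 in the deletion cells. Trac, Cd4 and Cd8a had 0 UMIs in all 3. The deletion cell without Trdc also held 10 UMIs of Lum and 3 of Col9a2, genes of matrix-making cells.

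The Mpo class was made up of 3 control cells with 157, 64 and 50 UMIs of Mpo, the peroxidase of early granules. Ctsg had 99, 19 and 13 UMIs in them and Prtn3, another granule protease, 70, 19 and 5. They were deep, with 13445 to 17837 UMIs. The deletion library's 0 depends on the rule for membership: before any exclusion, 4 leukocytes of each library passed this Mpo gate, and 3 of the 4 deletion cells were removed by their S100a8 and S100a9. The S100-high cells held 4 Mpo UMIs (control) and 286 (deletion).

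The Cd74 class was led by the class II genes H2-Eb1, H2-Aa and H2-Ab1. H2-Aa had 55 and 36 UMIs in the 2 control cells and from 7 to 55 in 11 of the 13 deletion cells. The other 2 deletion cells had 0 H2-Aa UMIs, with Ighm at 7 and 10 and Cd79b at 2 and 1, which goes against a dendritic name for the class. Flt3, the growth factor receptor of dendritic precursors, had UMIs in 1 control and 4 deletion cells. Cd209a, a lectin of monocyte-related dendritic cells, had UMIs in 6 deletion cells, 9 of its 15 in 1 of them. Xcr1 and Siglech were at 0 in every cell, and Clec9a and Ccr7 had 1 UMI each.

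Over all members, class II genes were higher in the deletion library. H2-Ab1 was 105 CPM (80.6 to 135) for control and 559 CPM (499 to 625) for deletion, H2-Eb1 117 and 447 CPM, and H2-Aa 166 and 565 CPM. Their log2 ratios were 2.36, 1.89 and 1.74. Of the 11 measured genes of class II and presentation, 6 lay above 0 and 4 passed the size rule as higher. The 4 were H2-Ab1, H2-Eb1, H2-Aa and Cd74 (61 and 185 UMIs). The list counted genes from 5 CPM. Of all genes tested, which had at least 50 CPM in 1 library, 0.873% passed as higher. The Cd74 class held 2 control and 13 deletion cells, and within that class H2-Aa was 10620 and 8693 CPM and none of Cd74, H2-Aa, H2-Ab1 and H2-Eb1 passed the size rule. With each class given the same weight in both libraries, the log2 ratio was -0.30 for H2-Aa, -0.10 for H2-Eb1, 0.50 for H2-Ab1 and 0.25 for Cd74, none past the rule. Before the exclusions, 7 of 838 control leukocytes (0.835%, 0.336 to 1.71) and 11 of 846 deletion leukocytes (1.30%, 0.651 to 2.31) had at least 10 UMIs of the 3 H2 genes together. Of the 7 control cells 5 were excluded, 4 of them for C1q, and none of the 11 deletion cells was.

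**Figure D4:**
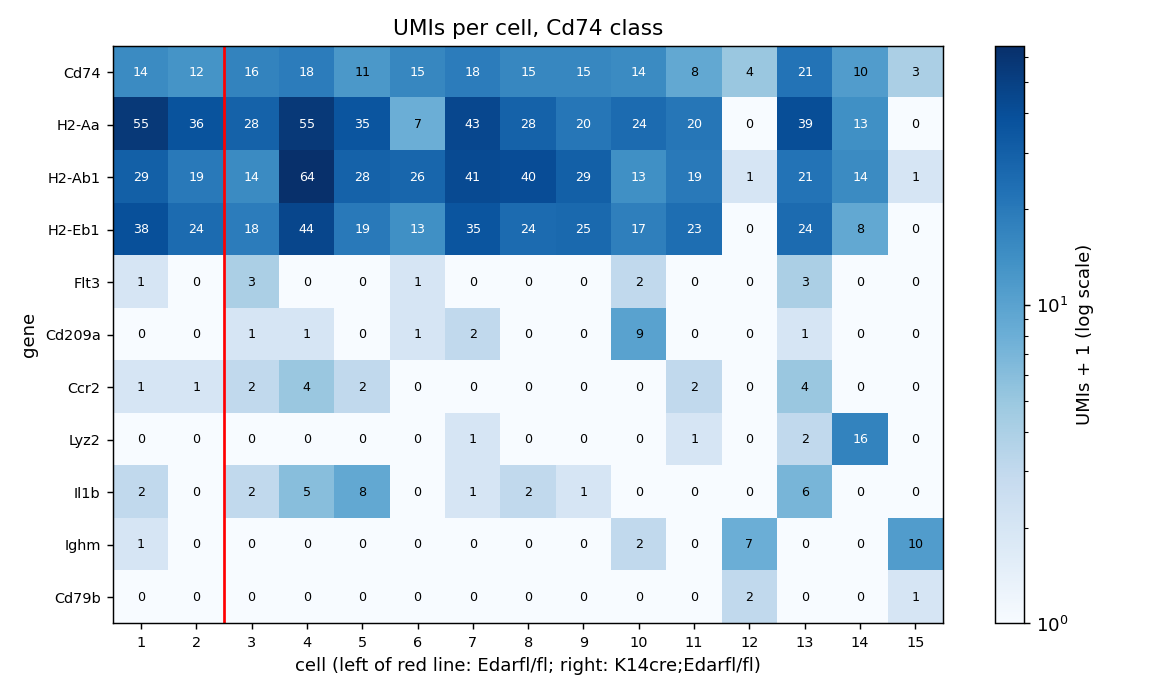
UMIs of 11 genes (rows) in the 15 cells of the Cd74 class (columns, control left of the red line), coloured on a log scale. H2-Aa is at 0 in 2 deletion cells that carry Ighm.

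Within the Cd74 class 28 genes were higher (0.582% of 4813) and 116 lower (2.41%) by the size rule. Both counts rest on 2 control cells, and 48 of the lower genes took over 50% of their UMIs from 1 cell.

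The Ccr2 class was called monocyte-like from its marker list, which includes the gate gene itself. Neutrophil and macrophage genes were present as well, with 9 of 10 and 12 of 16 listed genes at 5 CPM or more in 1 library. Ly6c2, the antigen of inflammatory monocytes, was 848 CPM (control) and 723 CPM (deletion). Thbs1, a matrix glycoprotein, was 6730 and 6323 CPM, and Ptgs2, the inducible prostaglandin synthase, 1247 and 1868 CPM. Il1b, the cytokine interleukin 1 beta, was 2820 and 2246 CPM, and the chemokine Cxcl2 4466 and 4613 CPM. None of these 5 passed the size rule. They are not particular to this class. In 113 control and 115 deletion S100-high leukocytes Ly6c2 was 1800 and 1852 CPM and Thbs1 7344 and 6052 CPM, above the class. Il1b was 2245 and 1110 CPM and Ptgs2 389 and 275 CPM there, below it. Ccr2 itself was 227 and 148 CPM in those cells.

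In this class 148 genes were higher in the deletion library (3.85% of 3844) and 105 were lower (2.73%). Of the 16 monocyte genes, 7 lay above 0, 1 passed as higher and 1, Cx3cr1, as lower. Cx3cr1, the fractalkine receptor, had 40 UMIs in 11 control cells and 12 UMIs in 8 deletion cells (225 and 65.7 CPM). Adgre4, an adhesion receptor of myeloid cells, had 27 UMIs in 12 of 41 control cells and 1 UMI in 1 of 47 deletion cells. Csta2, a protease inhibitor, had 83 UMIs in 18 control cells and 14 in 9 deletion cells.

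Of the 22 measured cytokine and chemokine genes 0 were called higher and 3 lower, where 3.85% and 2.73% of all genes tested were. Tnf was 461 and 159 CPM, with a log2 ratio of -1.51. Csf1, the macrophage growth factor, had 19 and 3 UMIs, 59.1% of them in 1 cell, and Areg, an epidermal growth factor receptor ligand, 29 and 10. Without each gene's highest cell, Csf1 (-0.85) and Areg (-0.97) no longer passed. Among neutrophil genes Mmp8, a collagenase, was higher (14 and 67 UMIs, log2 ratio 2.15), as was Il1r2, the decoy receptor for interleukin 1 (52 and 117 UMIs, 1.12). Pf4, a platelet and macrophage chemokine, was higher too (8 UMIs in 1 control cell and 36 in 7 deletion cells, 2.02). Tnf, Mmp8 and Pf4 passed the size rule under every alternative run for this class, while Il1r2 stood at 0.90 without its highest cell. The membership limits and the Ccr2 gate were not varied for genes of this class. Of 14 genes of NF-kB and its feedback, 5 lay above 0 and 0 passed the rule.

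Of 20 cell cycle genes 18 lay above 0 and 3 passed as higher, with a median log2 ratio of 0.72. Over all genes 48.7% lay above 0, the median was -0.02 and 3.85% of those tested passed as higher. Mki67 had 12 and 34 UMIs (log2 ratio 1.40), Top2a 13 and 30 (1.12), and Rrm1, a subunit of the enzyme that makes deoxynucleotides, 6 and 24 (1.82). Without the highest cell Mki67 stood at 0.73 and Top2a at 0.69, neither past the rule, and Rrm1 turned to -1.07 on thinned counts of 2 and 1 UMIs. After thinning to 1000 UMIs, at least 2 cell cycle UMIs were present in 5 of 40 control cells (12.5%, 4.19 to 26.8) and 17 of 47 deletion cells (36.2%, 22.7 to 51.5). Without thinning the shares were 48.8% and 59.6%. Over all members the thinned shares were 20.5% (13.6 to 29.0) of 117 and 40.4% (32.3 to 49.0) of 141, and 19 of the 20 genes lay above 0 with 0 past the size rule. The part of free RNA in these shares was not tested.

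**Figure D5:**
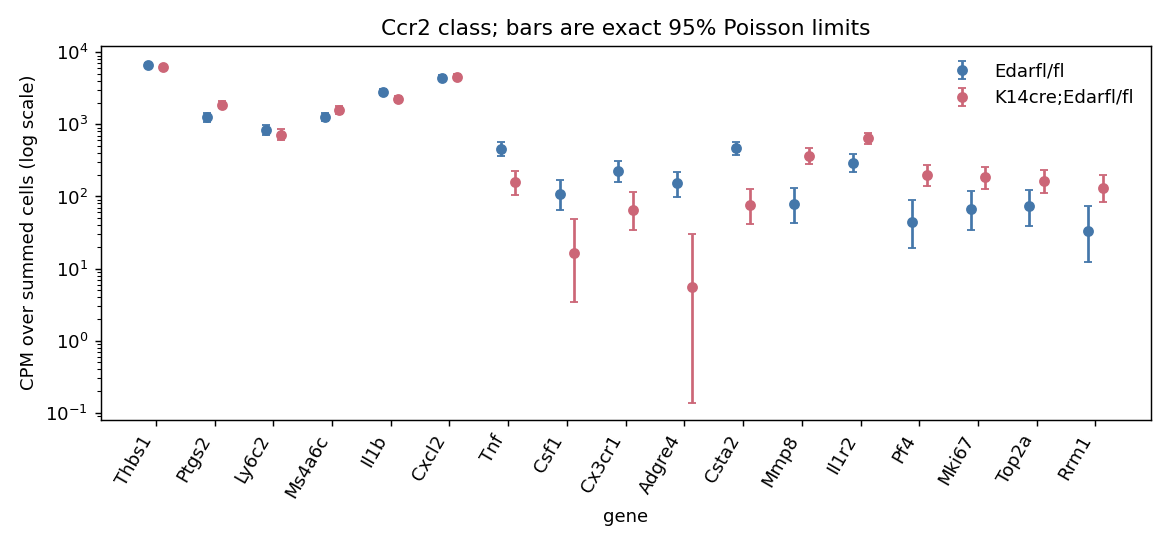
Level of 17 genes (CPM over the summed cells of the Ccr2 class, log axis) in the control (blue) and deletion library (red), with exact 95% Poisson limits. Thbs1 and Cxcl2 lie close together, while Tnf, Csf1, Cx3cr1, Adgre4 and Csta2 are lower and Mmp8, Il1r2, Pf4, Mki67, Top2a and Rrm1 higher in the deletion library.

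Genes of other tissues came from single cells of this class. Amelx, the enamel matrix protein, had 4 control and 150 deletion UMIs, and 95.5% of all of them lay in 1 deletion cell, which also held 21 UMIs of Dspp. Perp, a desmosomal protein, had 1 and 26 UMIs, of which 22 lay in a deletion cell marked as a doublet. Il7r, Il2rb and Arg1 were lower mainly through 1 control cell that held 10, 9 and 13 UMIs of them, a combination known from innate lymphoid cells.

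The remainder was mixed and is given no cell name. Its leading genes included Gpnmb, Lpl and Spp1, known from lipid-handling macrophages, and Igfbp7, Col4a1 and Sparc of vessel and stromal cells. At least 3 UMIs of Thbs1, Trem1, Clec4e, Hp and Gda, genes of monocytes and neutrophils, marked 29 of 56 control and 35 of 62 deletion cells. The macrophage genes Adgre1, Mrc1, Cd68, Trem2, Gpnmb and Pf4 marked 22 and 34 by the same limit, and the collagens Col1a1, Col1a2 and Col3a1 30 and 27. Endothelial genes (Pecam1, Cdh5, Kdr and Emcn, at least 3 UMIs) marked 7 of 56 control and 3 of 62 deletion cells. By the size rule 92 genes were higher (2.38% of 3868) and 163 lower (4.21%). Mrc1, the mannose receptor, had 12 UMIs in 7 control cells and 69 in 13 deletion cells (log2 ratio 2.52), and Gpnmb had 280 and 74 (-1.77). Over all members, C1q under 5 per 10000 left Gpnmb at 95 and 54 UMIs (-0.61), no longer past the rule. That limit was not run for the remainder alone. C1qa, which the rule for membership used, had 3 and 16 UMIs. Of 8 endothelial genes 0 lay above 0 and Cdh5 (51 and 20 UMIs) passed as lower, though not without its highest cell (-0.72).

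Several of the strongest differences in the remainder were 1 cell each. Rgs5, a pericyte gene, had 203 control UMIs, 201 of them in 1 cell with Notch3 and Acta2. Prg2, an eosinophil granule protein, had 70 control UMIs, 56 of them in 1 cell with 10 UMIs of Ear1. Gzma, a killer cell protease, had 55 control UMIs, 51 in 1 cell that also held Nkg7, Klrd1 and 13 UMIs of Ccl5. Il22 had 15 UMIs, all in 1 deletion cell with 12 UMIs of Rora and 2 of Il17a. A control cell with 53 Prss34 and 27 Mcpt8 UMIs also held 51 endothelial UMIs.

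Over all 262 members 33 genes were higher (0.873% of 3780 tested) and 67 lower (1.77%). Beside class II, Xist (48 and 165 UMIs), Mrc1 (32 and 98) and Ctsk, a gene of the membership rule (14 and 49), were among the highest ratios. Among the lowest were Mpo (289 and 12 UMIs), Ctla2a, a protease inhibitor (407 and 49), and Ednrb, the endothelin receptor B (36 and 3). With members of at least 5 leukocyte UMIs, Ednrb had 6 and 3 UMIs (log2 ratio -0.54) and no longer passed. Of the 7 measured progenitor genes 4 passed as lower, with a median log2 ratio of -2.52: Cd34, and Mpo, Ctsg and Prtn3, which each took over 50% of their UMIs from 1 control cell. With each class given the same weight in both libraries and the Mpo class left out, Mpo (-0.47), Ctsg (-1.17) and Prtn3 (-0.81) no longer passed, and Cd34 (-1.59) did. Over all members 0 of 8 endothelial genes lay above 0 and 3 passed as lower, where 1.77% of genes tested did. The part of endothelial cells in the Cd34 value was not tested. The S100 limit of the membership rule had removed deletion cells rich in Mpo, as given above. Genes of the EDA pathway, which carries the signal of the deleted receptor, had a median of -0.04 with 0 of 7 past the rule, and those of NF-kB and its feedback a median of 0.17 with 0 of 14. By class, 1 of 6 measured EDA pathway genes was lower in the Ccr2 class, where 2.73% of genes tested were. It was Chuk, a kinase that activates NF-kB (28 UMIs in 20 control cells and 11 in 8 deletion cells, log2 ratio -1.31). After thinning to 1000 UMIs Chuk had 8 and 2 UMIs (-2.11) and no longer passed. In the Cd74 class 1 of 6 EDA pathway genes and 1 of 13 NF-kB genes were lower, where 2.41% of genes tested were. They were Tab2, an adaptor of the pathway (9 and 13 UMIs, -1.52), and Nfkbiz, an NF-kB regulator (8 and 10 UMIs, -1.73). Neither passed after thinning to 1000 UMIs. Each rested mainly on 1 of the 2 control cells, which left 3 Tab2 and 0 Nfkbiz UMIs in the other. Without the UMIs of that cell Tab2 stood at 0.048 and Nfkbiz at 5.83. The total of both control cells was kept, so the Tab2 value cannot show a reversal.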

How the data were processed

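Whole-number UMI counts per gene and barcode were deposited by the authors for 2 libraries. The submitters' processing notes name STARsolo and mm10; no source states the barcode filter or any earlier doublet removal. The libraries held 13990 and 16029 barcodes and 73375441 and 62158879 UMIs, over 31253 features. Scrublet in scanpy 1.11.5 marked 1.31% and 1.57% of the barcodes used as doublets, which were kept. Counts were summed per library and class with Python 3.11.15, numpy 2.4.6 and scipy 1.17.1. Levels carry exact Poisson, shares Clopper-Pearson and ratios conditional binomial intervals at 95%. Log2 ratios use CPM plus 5, which understates the change of low genes. Lists counted genes with at least 5 CPM, while shares of genes tested that passed the size rule are of genes with at least 50 CPM. With 1 library per group, no gene was tested for significance.

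Members, gates and gene lists were chosen with earlier results of these data known. Named genes were the marker list of each gate, the 10 leading genes of each class, up to 12 genes per direction past the size rule, and list genes of high level or ratio. Splits within classes, marker sets of the remainder and the single cells described were chosen after values were seen. Of 363 listed genes, 360 were in the files. Alternatives changed the membership limits, gates, pseudocount, minimum level, weighting, depth and doublets. Membership limits were changed for shares and for genes over all members, and gates for class shares, but neither for genes within a class. Promoter windows came from RefSeq and gene positions from GENCODE M21. A result on 1 listed gene is not reported here.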

Additional observations from a re-analysis of the deposited data

How the results depend on the processing

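With barcodes of at most 10% mitochondrial UMIs the member share was 1.09% (control) and 1.12% (deletion), and with at least 5 leukocyte UMIs it was 0.723% in the deletion library, where the Cd79a class then fell to 3.57% of members. Doubled gates put the control library at 0% in the Cd74 class, 22.7% in the Ccr2 class and 63.0% in the remainder, and the deletion library at 21.7% and 60.8% in the last 2.

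Counts of genes past the size rule moved with the level required, with thinning and with single cells. For all members, a minimum of 20 CPM gave 124 higher and 202 lower, no minimum 174 and 282, thinning 79 and 129, and a mean of per-cell CPM 111 lower. For the remainder a minimum of 20 CPM gave 146 and 263, no minimum 167 and 263, and thinning 81 lower. Thinning gave 11 higher and 29 lower in the Cpa3 class, 5 and 45 in the Cd74 class, and 53 and 57 in the Ccr2 class.

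An alternative chosen after seeing the data left out each gene's UMIs in the cell with most of them. That cell's other UMIs stayed in the total, which understates the gene in the library that held the cell. Values given above without the highest cell are of this kind. This alternative gave 27 lower genes for all members, 28 for the Cpa3 class, 17 for the Cd74 class, 55 for the Ccr2 class and 66 for the remainder. It turned Amelx to -0.13 over all members and -0.36 in the Ccr2 class, Penk to 0.018, Calb1 to -1.09, Arg1 to 1.07 and, in the Cpa3 class, Ctsg to 3.0, and, in the Cd74 class, Tab2 to 0.048 and Nfkbiz to 5.83, all on 13 UMIs or fewer per library. The turn of Tab2, in a class of 2 control cells, depends on the kept total. Of the higher genes of the Cpa3 class, 3 of 98 were shared with those called then. With the same class weights in both libraries (the Mpo class left out, being empty in 1), H2-Eb1 turned to -0.10 and H2-Aa to -0.30. Thinning turned Emcn to 0.37 and Kdr to 1.01 over all members and Rrm1 to -1.07 in the Ccr2 class. Of 912 values of called genes named here or of largest ratio, 735 kept their call, 164 lost it and 13 turned; causes were not tested.

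No paired analysis was possible because each group is 1 library. The number of cells limits the small classes: 6 of 10 cells gives limits of 26.2 to 87.8%.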
